A study of Zea mays with 48 samples.

Results

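Distal upstream peaks of ZmCCA1 are the regions described here: peaks that lay upstream of the gene listed beside them, on that gene's own strand, with more than 2 kb between the edge of the peak and the gene. The study's gene assignment ended at 10 kb, so the class spans gaps of 2 to 10 kb. It held 927 of the 10136 peaks in the 4 deposited lists, with 241 of 2796 (BM), 185 of 1874 (MB), 279 of 3364 (B73) and 222 of 2102 (Mo17). The members were taken by coordinates and strand alone, and no ChIP value entered their choice. The peaks came from chromatin immunoprecipitation followed by sequencing (ChIP-seq) in aerial tissue of maize seedlings grown in a light/dark cycle and sampled 5 days after planting. BM is the F1 hybrid of a B73 mother and a Mo17 father, MB is the reciprocal F1 hybrid, and B73 and Mo17 are the inbred parents. Each genotype was sampled at 3, 9 and 15 h after dawn (ZT3, ZT9 and ZT15) in 2 biological replicates, with an input library for every ChIP library, giving 24 ChIP and 24 input libraries in all. The antibodies recognised the MYB DNA-binding domain, so ZmCCA1b and any full-length ZmCCA1a were pulled down together and cannot be told apart. Every genotype had 1 list of peaks, with 1 log2(ChIP/Input) value per peak and time point for the replicates combined. No value therefore has a replicate error, the read depth behind a peak is not known here, and differences between genotypes were set against the spread over lists or peaks.

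CCA1 is a MYB transcription factor of the plant circadian clock. Its protein is most abundant in the morning, it binds short DNA elements near clock genes and near genes of photosynthesis and starch metabolism, and it represses the clock genes expressed in the evening. The elements are the evening element (EE) and the CCA1-binding site (CBS). The following probes of the study's gel-shift assays show what the protein recognises, and the capitals mark the element. The first stems from gi1, the maize GIGANTEA gene of the clock, and the second from GRMZM2G129513, named by the study as a malate dehydrogenase gene.
GRMZM2G107101 (gi1), CBS: gcatcgcggaAAAAATCTttttctcgcc
GRMZM2G129513, EE: attaaatataaAAATATCTaaattcataa
Neither gene had a distal upstream peak. Of 18 genes that the study examined one by one, 9 had a peak in at least 1 list, all 9 had a peak overlapping the gene, 1 (GRMZM2G448142) also had peaks within 2 kb upstream, and 0 had a distal peak. Over all genes of the lists, only 450 of 4321 had a distal peak, and the difference from 0 of 9 was not tested. Most of the 18 belong to the clock or to carbon fixation; a cell number regulator used as a control (GRMZM2G151230) and GRMZM2G337113, whose function is not described there, do not count among these and had no peak. The study chose some of these genes with the ChIP-seq data in view.

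Distal peaks were a minor part of every list. Their share was 8.62% of the BM list (95% Wilson interval 7.64 to 9.72%), 9.87% of MB (8.60 to 11.3%), 8.29% of B73 (7.41 to 9.27%) and 10.6% of Mo17 (9.32 to 11.9%), and the intervals of B73 and Mo17 did not overlap. These intervals, like all others given here, cover counting error only. The dense clusters described below held 75 of the 222 distal peaks of Mo17 and 61 of the 279 of B73. No intervals were computed without those clusters. Most upstream peaks were distal: among all peaks upstream of their gene, 71.7% (BM), 74.6% (MB), 69.2% (B73) and 70.5% (Mo17) lay beyond 2 kb. No list assigned a peak to a gene that it lay downstream of.

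The gap between peak and gene showed no preferred distance within the class. Over the 4 lists the median gap was 5706 bp, the quartiles were 3806 and 7993 bp, and the range ran from 2008 to 9992 bp. The medians of the lists were 5555 bp (BM), 5776 bp (MB), 5706 bp (B73) and 5796.5 bp (Mo17). Each 1 kb of gap held between 98 and 143 peaks, with the most at 2 to 3 kb and the fewest at 6 to 7 kb. Nearer the gene, 164 peaks lay at 1 to 2 kb and 211 within 1 kb. The 2 members nearest the boundary belonged to GRMZM2G444376 in MB (gap 2008 bp, with 2.07, 1.55 and 1.40 at ZT3, ZT9 and ZT15) and GRMZM5G898280 in B73 (2013 bp, with 1.33, 1.51 and 1.63). The 2 peaks just outside it belonged to GRMZM5G803997 in B73 (1996 bp, with 2.28, 1.35 and 1.87) and GRMZM5G876434 in BM (1991 bp, with 1.45, 2.46 and 0.30). The widest gaps were those of GRMZM2G067648 in B73 (9992 bp, with 1.97, 0.94 and -0.06) and GRMZM2G121647 in MB (9989 bp, with 0.52, 0.21 and 0.34). Values just inside and just outside the boundary overlapped.

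**Figure D1:**
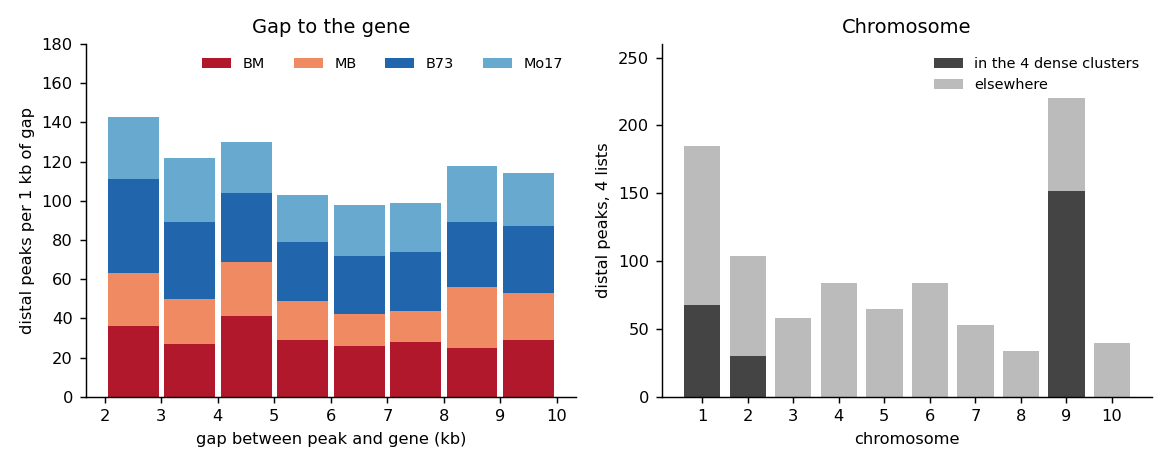
Distal upstream peaks by gap (left, stacked by list, peaks per 1 kb of gap) and by chromosome (right, summed over 4 lists, with peaks of the 4 dense clusters in dark grey). Counts per 1 kb of gap stay between 98 and 143, and chromosome 9 holds 220 peaks, 152 of them in dense clusters.

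The members were unevenly spread over the genome. Chromosome 9 held 220 of the 927 distal peaks (23.7%) and chromosome 1 held 185, against 34 on chromosome 8 and 40 on chromosome 10. On chromosome 9, 20.5% of all peaks were distal, while the share on the other chromosomes lay between 4.15 and 11.0%. When distal peaks less than 50 kb apart were chained together, 376 groups formed, 253 of them a single peak. The largest 4 groups held 250 distal peaks (27.0%), and the next held 14. This chaining was chosen after the data had been seen. The 4 groups are called the dense clusters below.

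The largest dense cluster lay at chr9:72717607-73009828 (B73 reference AGPv2, as are all coordinates here), spanned 292 kb and held 122 distal peaks of 27 genes. The others lay at chr1:234544088-234739456 (68 peaks, 15 genes), chr2:229086962-229116398 (30 peaks, 5 genes) and chr9:57934302-57996104 (30 peaks, 5 genes). Peaks of other classes were there too, 151 in all, which was 1.64% of the 9209 peaks that were not distal. None of the 52 genes with a distal peak in the dense clusters had its identifier in the RefSeq gene table, against 143 of 398 (35.9%) of the genes with a distal peak elsewhere only. The cluster genes were short, with a median length of 925 bp, against 2407 bp for the genes elsewhere. What part these properties had in the values was not tested.

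Cluster peaks were present in most lists and had higher ZT3 levels than members elsewhere. In the clusters, 84.5% (BM), 80.4% (MB), 83.6% (B73) and 72.0% (Mo17) of the distal peaks belonged to a locus found in all 4 lists, against 25.7%, 35.7%, 22.9% and 30.6% elsewhere. Here a locus is a set of peaks from any lists joined by an overlap of at least 1 bp. The median ZT3 level in the clusters was 2.06 (BM), 2.12 (MB), 1.86 (B73) and 2.08 (Mo17), while elsewhere it was 1.84, 1.67, 1.54 and 1.51. At ZT9 the medians of these lists were 1.71, 1.63, 1.68 and 2.19 in the clusters, against 1.45, 1.52, 1.63 and 1.67 elsewhere. At ZT15 they were 1.27, 1.64, 1.57 and 1.98 in the clusters, against 1.02, 1.23, 1.37 and 1.43 elsewhere. Results below that lean on the clusters are given with and without them.

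The strongest distal peaks were 3 loci that stood far above the rest of the class, in every list and with nearly the same edges. A log2(ChIP/Input) of 4 or more at some time point was reached by exactly these 3 distal peaks in each list. Over all classes it was reached by 4 peaks (BM), 4 (MB), 7 (B73) and 5 (Mo17). The identifiers of these 3 genes had no match in the RefSeq gene table.

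The first locus lay at chr6:138678780-138680139, 9662 bp upstream of GRMZM2G066485 (chromosome 6, 138689801 to 138712462, plus strand). In BM it had 6.87 at ZT3, 4.68 at ZT9 and 4.17 at ZT15. In MB the values were 6.46, 4.66 and 4.52. In B73 they were 5.53, 4.95 and 4.54, and in Mo17 5.54, 5.33 and 4.13. At ZT3 both hybrids were above both inbreds, at ZT9 both hybrids were below both inbreds, and at ZT15 the genotypes overlapped.

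The second locus lay at chr8:166826527-166828574, 8796 bp upstream of GRMZM2G168077 on the minus strand. In BM its values at ZT3, ZT9 and ZT15 were 6.73, 4.78 and 3.97, and in MB they were 6.33, 5.01 and 4.45. In B73 the values were 5.47, 4.63 and 4.35, and in Mo17 5.28, 5.17 and 3.92. The third lay at chr6:140854235-140855383, 4948 bp upstream of GRMZM2G020929, also on the minus strand. It had values of 6.36, 4.51 and 4.60 (BM) and 6.27, 5.10 and 4.45 (MB) in the hybrids, against 5.27, 4.75 and 4.26 (B73) and 4.99, 5.27 and 3.93 (Mo17) in the inbreds. At both loci the hybrids were above the inbreds at ZT3 and the values overlapped at ZT9. At ZT15 they overlapped at the second locus, and the hybrids were higher at the third.

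**Figure D2:**
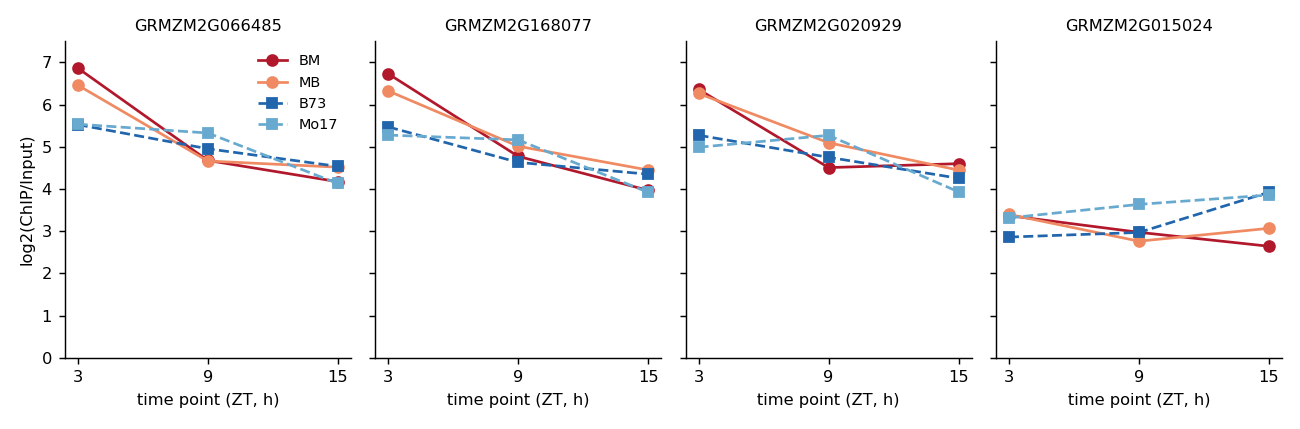
Enrichment as log2(ChIP/Input) over the 3 time points for the 4 strongest loci that are distal to the same gene in all lists, 1 line per list (circles and solid lines for hybrids BM and MB, squares and dashed lines for inbreds B73 and Mo17). At the first 3 loci the hybrids reach 6.27 to 6.87 at ZT3 and the inbreds 4.99 to 5.54, and the fourth locus is highest at ZT15 in both inbreds (3.93 and 3.86).

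The loci next in strength were weaker in every list. GRMZM2G015024 (peaks 3839 to 3863 bp upstream, on chromosome 2) had values of 3.37, 2.97 and 2.64 (BM) and 3.40, 2.76 and 3.07 (MB) in the hybrids, against 2.86, 2.97 and 3.93 (B73) and 3.32, 3.64 and 3.86 (Mo17) in the inbreds. It was thus highest at ZT3 in both hybrids and at ZT15 in both inbreds. GRMZM2G081037 on chromosome 4, with a peak of only 365 to 368 bp lying 2354 to 2357 bp upstream, had values of 2.62, 2.76 and 2.52 (BM) and 3.20, 2.54 and 2.70 (MB) in the hybrids, against 2.93, 3.19 and 3.64 (B73) and 2.63, 3.24 and 3.41 (Mo17) in the inbreds. Its inbred values were above the hybrid values at ZT9 and ZT15, and its ZT3 values overlapped.

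GRMZM2G156525, in the largest cluster, had values of 2.51, 2.07 and 1.58 (BM) and 2.93, 2.13 and 1.63 (MB) in the hybrids, against 2.11, 2.42 and 1.76 (B73) and 1.80, 2.64 and 2.36 (Mo17) in the inbreds. GRMZM2G174094 on chromosome 2, with peaks 8866 to 9054 bp upstream, had values of 2.45, 1.95 and 1.11 (BM) and 2.70, 2.05 and 1.76 (MB) in the hybrids, against 2.21, 2.17 and 1.88 (B73) and 2.35, 2.65 and 2.09 (Mo17) in the inbreds. Both loci followed the same order, with the hybrids above the inbreds at ZT3 and below them at ZT9 and ZT15.

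Some genes had several distal peaks in a row. GRMZM2G072938, in the chromosome 2 cluster, had 13 over the 4 lists, between 2214 and 7198 bp upstream. GRMZM2G036833 on chromosome 6 had 12, which was 3 in every list. Its farthest peak, 4832 to 4934 bp wide, had values of 2.38, 1.93 and 1.60 (BM) and 2.23, 1.94 and 1.98 (MB) in the hybrids, against 2.31, 2.05 and 2.08 (B73) and 2.24, 2.47 and 2.11 (Mo17) in the inbreds. GRMZM2G154746, in the chromosome 1 cluster, had 11, as did GRMZM2G156525. In MB a single peak of 4458 bp covered the stretch that was listed upstream of GRMZM2G154746 as 3 peaks in BM, in B73 and in Mo17, so the number of peaks per gene depends on where the caller split them. The highest value among those pieces was 2.90 at ZT3 in BM and 2.56 at ZT3 in MB, against 2.59 at ZT3 in B73 and 2.85 at ZT9 in Mo17.

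Distal peaks had levels close to those of peaks within 2 kb upstream, and higher medians than peaks with no gene. The median of the highest of the 3 time points was 2.04 (BM), 2.02 (MB), 1.98 (B73) and 2.11 (Mo17) for distal peaks. Averaged over the 4 lists this median was 2.04 for distal peaks, against 2.03 within 2 kb upstream, 1.97 for peaks overlapping the gene and 1.60 for peaks with no gene. The difference in this median between distal peaks and peaks with no gene was 0.44 (range over lists 0.32 to 0.52). Between distal peaks and peaks within 2 kb upstream it was 0.00 (range -0.07 to 0.04).

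By time point, the median of distal peaks was 1.91 at ZT3, 1.58 at ZT9 and 1.10 at ZT15 in BM, and 1.89, 1.56 and 1.47 in MB. In B73 it was 1.67, 1.64 and 1.45, and in Mo17 1.86, 1.91 and 1.68. Against peaks overlapping the gene, the distal median was higher in 4 of 4 lists at each time point, by 0.28 at ZT3 (0.08 to 0.53), 0.10 at ZT9 (0.06 to 0.20) and 0.36 at ZT15 (0.10 to 0.54). The exact two-sided sign-flip test over the 4 genotypes gave p = 0.13 for each of these, the smallest p that 4 genotypes allow, and 0.19 after Benjamini-Hochberg adjustment over 12 comparisons, so no such comparison could pass 0.05. Without the dense clusters the differences shrank to 0.10 at ZT3, 0.00 at ZT9 and 0.21 at ZT15. The gap itself went with little change in level. At gaps of 2 to 4 kb the median of the highest value was 1.97 (BM), 2.02 (MB), 1.93 (B73) and 2.12 (Mo17), and at 8 to 10 kb it was 2.05 (BM), 1.97 (MB), 2.03 (B73) and 2.13 (Mo17).

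**Figure D3:**
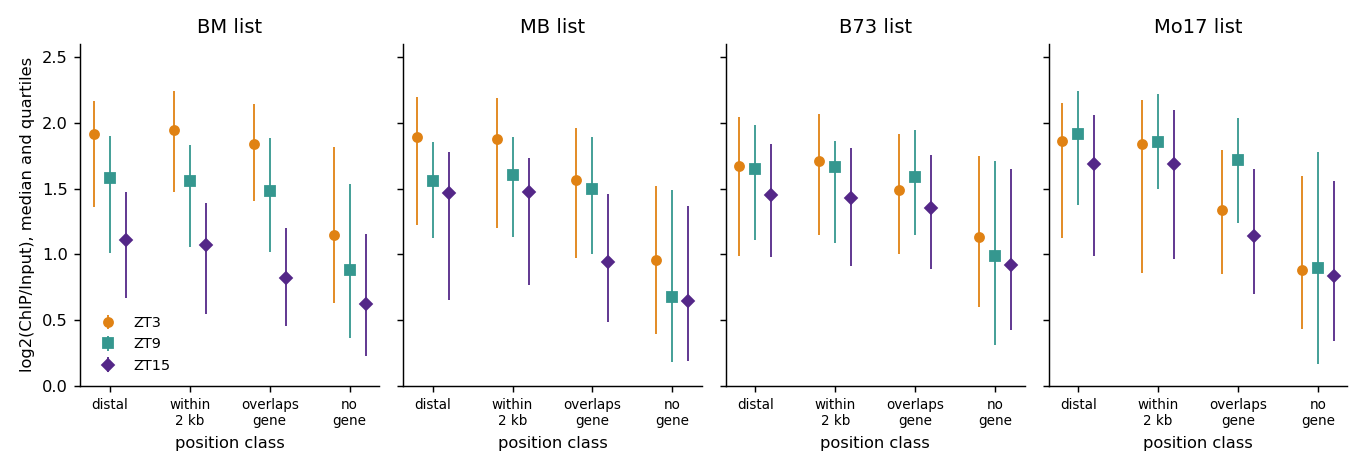
Median log2(ChIP/Input) with quartiles (bars) at ZT3, ZT9 and ZT15 by position class in each list. Distal peaks and peaks within 2 kb upstream have like medians in every list, and peaks with no gene are lower.

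The time of highest binding, called the phase of a peak, was earlier in the hybrids. Among distal peaks, 172 of 241 in BM (71.4%, interval 65.4 to 76.7%) and 123 of 185 in MB (66.5%, 59.4 to 72.9%) had their highest value at ZT3, against 117 of 279 in B73 (41.9%, 36.3 to 47.8%) and 62 of 222 in Mo17 (27.9%, 22.4 to 34.2%). The shares at ZT9 were 21.2% in BM and 22.7% in MB, against 31.5% in B73 and 47.7% in Mo17. At ZT15 they were 7.47% in BM and 10.8% in MB, against 26.5% in B73 and 24.3% in Mo17. Pooled, 69.2% of hybrid and 35.7% of inbred distal peaks had a ZT3 phase, which is 33.5 points apart (two-sided Fisher's exact test, p = 1.9e-23 after adjustment over 15 comparisons). All 4 single pairs passed at ZT3 (differences of 24.6 to 43.4 points, adjusted p between 2.7e-20 and 3.9e-07), and all passed at ZT9 and ZT15, with fewer hybrid peaks at both times. The weakest calls were those against B73 at ZT9, with Fisher's exact adjusted p = 0.010 for BM and 0.045 for MB, and neither passed without the dense clusters (0.083 and 0.34). With only peaks whose highest value led by at least 0.5, the exact test also lost the MB against Mo17 call at ZT9 (adjusted p = 0.059) and the calls of BM (0.084) and MB (0.18) against Mo17 at ZT15. Peaks of a list share libraries, and 100 loci with a distal peak were found in all 4 lists, so the counts were not independent. Fisher's test ignores this and covers counting error at most. With the genotypes as units, 2 hybrids against 2 inbreds, the exact permutation test gave p = 0.33, the smallest it can give.

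**Figure D4:**
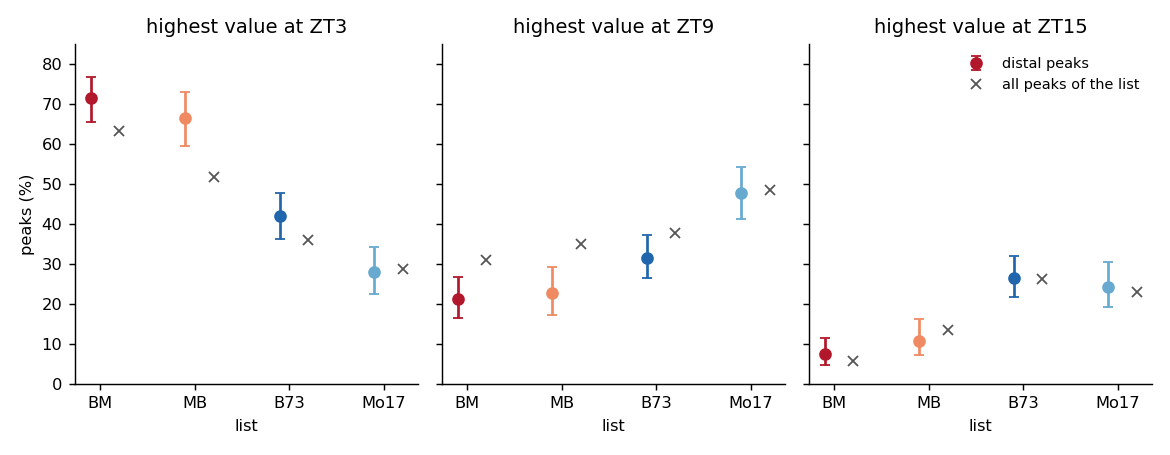
Share of distal peaks with the highest value at ZT3, ZT9 or ZT15 in each list (circles, with 95% Wilson intervals), and the share of all peaks of that list (crosses). The ZT3 shares are 71.4% in BM and 66.5% in MB, against 41.9% in B73 and 27.9% in Mo17, and the all-peak shares fall in the same order.

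The same order was found in the lists as a whole. Over all peaks, 63.2% in BM and 51.7% in MB had a ZT3 phase, against 36% in B73 and 28.6% in Mo17. Distal peaks exceeded their own list by most in MB and not at all in Mo17. The difference between distal peaks and peaks overlapping the gene in the ZT3 share averaged 9.06 points (1.68 to 17.7 points, higher in 4 of 4 lists, exact sign-flip p = 0.13, adjusted over 9 comparisons 0.375), and was 5.28 points without the dense clusters. At ZT9 distal peaks were below peaks overlapping the gene in 4 of 4 lists, by 10.6 points (exact sign-flip p = 0.13, adjusted 0.375). Against peaks within 2 kb upstream the ZT3 share differed by 1.01 points (-0.81 to 5.05 points, exact sign-flip p = 1).

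The phase difference between hybrids and inbreds was not kept when each list was centred on its own level at each time point. The median of all peaks at ZT3 was 1.79 in BM and 1.52 in MB, against 1.48 in B73 and 1.34 in Mo17. At ZT9 it was 1.44 in BM and 1.44 in MB, against 1.56 in B73 and 1.68 in Mo17, and at ZT15 it was 0.82 in BM and 0.95 in MB, against 1.33 in B73 and 1.17 in Mo17. With every list centred on these medians before the phase was read, the pooled ZT3 share of distal peaks differed by -5.73 points, hybrids minus inbreds (Fisher's exact test, adjusted p = 0.18). By the same exact test the ZT9 difference became -1.97 points (adjusted p = 0.64) and the ZT15 difference 7.70 points (adjusted p = 0.10). Of the 15 centred comparisons, 2 passed the exact test, both at ZT15, where the share was 12.8 points higher in BM than in B73 (adjusted p = 0.023) and 15.0 points higher in MB than in B73 (adjusted p = 0.021), the opposite of the uncentred direction. Centring removes any shift that a whole list shares, whatever its source. Library and binding differences between whole lists therefore cannot be told apart by it, nor without the replicates. Without the dense clusters the uncentred ZT3 shares were 66.1% in BM and 59.7% in MB, against 36.2% in B73 and 29.3% in Mo17, so 30.0 points apart when pooled (Fisher's exact test, adjusted p = 1.1e-13). All Fisher's tests of this paragraph count peaks that share the libraries of their list. They cover counting error at most and say nothing on the spread between genotypes.

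Part of the distal peaks recurred at the same places in several lists. The members fell into 511 loci, of which 303 occurred in 1 list, 65 in 2, 43 in 3 and 100 in all 4. Among the 208 loci found in 2 or more lists, 160 were distal in every list and 156 of these with the same gene. At 70 loci with exactly 1 distal peak of the same gene in each list, the gap differed between lists by a median of 92.5 bp. By list, 67.2% (BM), 70.3% (MB), 61.3% (B73) and 72.5% (Mo17) of the distal peaks overlapped a peak of another list, against 55.7%, 62.3%, 50.5% and 60.6% of all peaks of these lists. Outside the dense clusters the distal shares were 56.8% (BM), 58.9% (MB), 50.5% (B73) and 62.6% (Mo17), near the shares of all peaks. For loci in all 4 lists the distal shares were 39.8%, 49.2%, 36.2% and 44.6%, against 18.6%, 26.5%, 15.7% and 25.2% of all peaks.

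Set against peaks overlapping the gene, distal peaks were found in another list more often in 4 of 4 lists, by 10.6 percentage points on average (6.27 to 12.2 points, exact sign-flip p = 0.13, the smallest possible). This difference was carried by the dense clusters and was 0.52 points without them. For loci in all 4 lists the difference was 25.7 points (24.5 to 27.8 points) and 13.0 points without the dense clusters, again with an exact sign-flip p of 0.13 for both. Peaks within 2 kb upstream were closer to the distal peaks. They were found in another list less often by 5.72 points (0.43 to 8.27 points, 4 of 4 lists, exact sign-flip p = 0.13), and for loci in all 4 lists the means were 42.5% for distal peaks and 40.7% within 2 kb upstream (difference 1.74 points, -1.22 to 5.56 points, higher in 2 of 4 lists, exact sign-flip p = 0.5). Members of 4-list loci were stronger than members found in 1 list only, with a median highest value of 2.09 against 1.92 in BM, 2.14 against 1.76 in MB, 2.07 against 1.88 in B73 and 2.30 against 1.72 in Mo17. They also differed less between time points. The highest value exceeded the next by a median of 0.38 (BM), 0.37 (MB), 0.21 (B73) and 0.17 (Mo17) at 4-list loci, against 1.06, 1.02, 0.84 and 0.89 at loci of 1 list. Neither contrast was computed for the other classes, and the part of peak calling in them was not tested.

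Some distal loci were called in both hybrid lists or in both inbred lists and in no other. Of the 511 loci with a distal peak, 3 (0.59%) were in BM and MB only, against 115 (1.78%) of all 6443 loci, and 14 (2.74%) were in B73 and Mo17 only, against 177 (2.75%) of all loci. All 3 hybrid-only loci were distal in both lists, as were 11 of the inbred-only loci. The difference from all loci was not tested. The hybrid-only loci were upstream of GRMZM2G416069 (BM 1.34, 2.27 and 1.34, MB 1.60, 1.74 and 1.52 at ZT3, ZT9 and ZT15), GRMZM2G099810 (BM 2.07, 1.39 and 0.61, MB 1.65, 1.0 and 1.51) and GRMZM2G444034 (BM 0.74, 1.59 and 1.16, MB 1.14, 1.64 and 0.57). The strongest inbred-only loci were upstream of GRMZM5G877708 (B73 1.92, 1.57 and 0.51, Mo17 2.55, 1.82 and 1.5), GRMZM2G510127 (B73 2.08, 2.36 and 1.56, Mo17 0.64, 0.09 and 2.07) and GRMZM2G409865 (B73 2.26, 2.24 and 1.33, Mo17 0.96, 2.11 and 0.89). Absence from a list means that no peak was called there, since no value is given outside called peaks.

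At the 100 loci that were present in all lists with a distal peak in at least 1 of them, the genotypes could be compared locus by locus. Peaks were chained into a locus, so not all peaks of a locus need overlap each other. Where a list had several peaks in a locus, the highest value at each time point was taken, from peaks of any class. At 75 of the 100 loci the peaks were distal to the same gene in every list. The mean ZT3 level was 2.17 in the hybrids and 2.06 in the inbreds, the mean ZT9 level was 1.73 in the hybrids and 2.02 in the inbreds, and the mean ZT15 level was 1.56 in the hybrids and 1.95 in the inbreds. The hybrid mean was above the inbred mean at 71 loci at ZT3, at 9 loci at ZT9 and at 11 loci at ZT15. Over all 471 loci present in the 4 lists it was above at 65.4% at ZT3, at 25.1% at ZT9 and at 11.5% at ZT15. The excess of ZT3 over the mean of ZT9 and ZT15 averaged 0.53 in the hybrids and 0.07 in the inbreds, a difference of 0.46 ± 0.40 (SD over 100 loci), and over all 471 loci the difference was 0.47 ± 0.46 (SD). Both hybrids were above both inbreds in this excess at 76 loci, both were below at 2, and the genotypes overlapped at 22. Over all 471 loci present in all lists, both hybrids were above both inbreds at 60.9%. After each list was centred on its median, both hybrids were above both inbreds at 10 of 100 distal loci, against 56 of 471 over all loci. Both hybrids were then below both inbreds at 21 of 100 distal loci, against 95 of 471 over all loci. Outside the dense clusters and without centring, both hybrids were above both inbreds at 42 of 50 distal loci (84.0%).

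**Figure D5:**
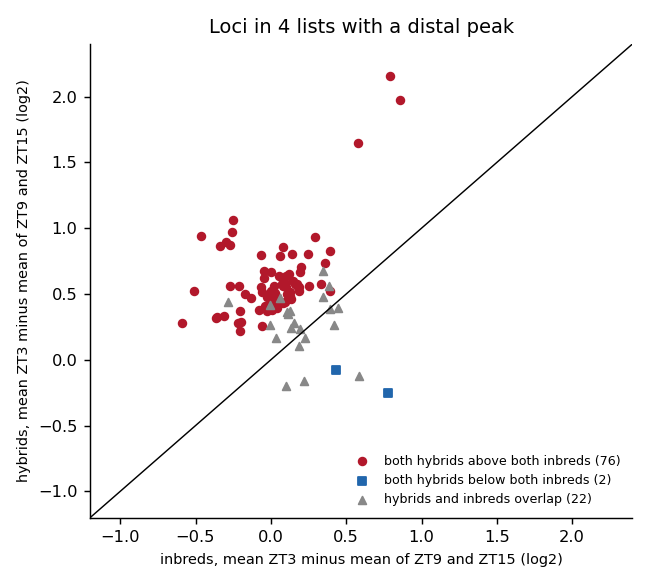
Excess of the ZT3 value over the mean of ZT9 and ZT15 (log2) at the 100 loci present in all lists with a distal peak in at least 1, with the mean of BM and MB on the vertical axis and the mean of B73 and Mo17 on the horizontal axis. The line marks equal values, and 76 loci have both hybrids above both inbreds.

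The largest differences in this excess were at GRMZM2G701286 (hybrids 0.94, inbreds -0.47), at the strongest locus upstream of GRMZM2G066485 (hybrids 2.16, inbreds 0.79) and at GRMZM2G109454 in the largest cluster (hybrids 1.06, inbreds -0.25). GRMZM2G701286 had 2.64, 1.05 and 0.67 (BM) and 1.39, 1.54 and 1.06 (MB), against 1.0, 1.22 and 2.34 (B73) and 1.22, 1.92 and 0.80 (Mo17). The BM value at ZT3 thus made most of its difference, and its Mo17 peak lay 1512 bp upstream and was not distal. GRMZM2G109454 had 2.54, 0.99 and 1.12 (BM) and 2.58, 2.11 and 1.76 (MB), against 1.65, 1.74 and 1.96 (B73) and 2.13, 2.59 and 2.28 (Mo17). The reverse was seen at GRMZM5G871297 (hybrids -0.25, inbreds 0.78), GRMZM2G142258 (hybrids -0.12, inbreds 0.58) and GRMZM2G065992 (hybrids -0.08, inbreds 0.43). GRMZM5G871297 had 1.56, 2.11 and 1.10 (BM) and 1.35, 2.27 and 1.34 (MB), against 1.93, 2.14 and 1.22 (B73) and 2.68, 0.96 and 1.80 (Mo17), so that only Mo17 was highest at ZT3. Its Mo17 peak ended at 234048204, before the BM peak (from 234048710) and the MB peak (from 234048838) began. The Mo17 peak was joined to the hybrid peaks only through the wider B73 peak, so its values come from another stretch. GRMZM2G142258 had 1.15, 0.81 and 0.50 (BM) and 0.87, 1.75 and 1.47 (MB), against 1.73, 0.60 and 0.85 (B73) and 1.58, 1.56 and 1.27 (Mo17). These loci were selected for their differences, which are descriptions without a test.

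For most of their genes, distal peaks were the only peaks. The class involved 450 genes, with 214 (BM), 165 (MB), 242 (B73) and 183 (Mo17), and 76 genes had a distal peak in every list. The distal peak or peaks stood alone for 81.8% (BM), 82.4% (MB), 79.3% (B73) and 74.9% (Mo17) of these genes. The like share was not computed for genes of the other classes, so standing alone is not shown to be particular to distal peaks. Between 21 and 37 genes per list also had a peak overlapping the gene. Within such genes the strongest distal peak differed from the strongest overlapping peak by a median of 0.07 (BM), 0.22 (MB), 0.04 (B73) and -0.09 (Mo17), and the distal peak was the higher in 17 of 26, 12 of 21, 20 of 37 and 13 of 28 genes of these lists.

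The gene listed beside a distal peak was not always the nearest. Another gene of the 4 lists overlapped 143 of the 927 distal peaks (15.4%), and another listed gene was nearer for 361 (38.9%). These are lower bounds, since genes outside the lists were not considered. Of the 450 genes, 143 (31.8%) had their identifier in the RefSeq gene table, against 69.4% of the 3871 other genes of the lists and 34.6% of the 182 genes with a peak within 2 kb upstream and no distal peak. The median length of the gene was 2089.5 bp, against 5929 bp for the other genes and 2226 bp for the genes with a peak within 2 kb upstream and no distal peak. Peak widths did not set the class apart, with median widths of 1038 bp (BM), 979 bp (MB), 993 bp (B73) and 912.5 bp (Mo17), against 1037.5, 974, 1025 and 980.5 bp over all peaks of these lists. The widest member in each list, 18606 to 20413 bp, was the same locus of the chromosome 1 cluster, upstream of GRMZM2G012877.

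A gene name was found in RefSeq for 22 of the 450 genes, with 30 distal peaks, and 16 of the 22 had them in 1 list only. They were selected for having a name, after the values had been seen. Their highest values were moderate, from 1.08 to 2.29 with a median of 1.82, and 11 of the 30 peaks had a ZT3 phase, 15 a ZT9 phase and 4 a ZT15 phase. These counts pool hybrid and inbred lists. Over all distal peaks the shares at ZT3, ZT9 and ZT15 were 69.2%, 21.8% and 8.92% in the hybrids. In the inbreds they were 35.7%, 38.7% and 25.5%, and the difference of the named peaks was not tested. None of the 30 named peaks was among the loci found in all lists.

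Only part of the named genes are described here, and no shared function was tested. Several of the named genes act in transcription and chromatin. bZIP108 (GRMZM2G033230), of the basic leucine zipper family, had 2.29 at ZT3, 1.14 at ZT9 and 1.27 at ZT15 in BM, against 1.45, 1.63 and 0.86 in Mo17. THX31 (GRMZM2G427087), a trihelix protein, had 1.99, 0.83 and 0.88 in BM and 1.92, 0.91 and 1.17 in B73, but its peaks also overlapped another listed gene. hda113 (GRMZM2G058573), a histone deacetylase gene, had a peak in MB only, 8630 bp upstream, with 1.67, 2.22 and -0.45. Med13 (GRMZM2G153792), a subunit of the Mediator complex that links factors to RNA polymerase, also had a peak in MB only, with 1.57, 0.67 and 1.36. nfa102 (GRMZM2G121186), a nucleosome assembly factor, had -0.36, 1.24 and -0.60 in B73.

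Others act in protein turnover, trafficking and the cell skeleton. The mitochondrial chaperonin gene mtcpn60II (GRMZM2G416120), near the chromosome 1 cluster, had 2.09, 0.40 and 1.07 in BM, 0.86, 2.12 and -0.14 in MB, and -0.08, 0.43 and 1.78 in Mo17. The phases of these peaks were ZT3, ZT9 and ZT15. The MB peak, which ended at 234790577, did not overlap the Mo17 peak, which began at 234790600. For all 3 peaks another listed gene was nearer. Siz1b (GRMZM2G337659), a SUMO ligase, had 2.23, 0.92 and 0.16 in B73, 7143 bp upstream. Atg8c (GRMZM2G076826), a ubiquitin-like protein of autophagy, had -0.06, 1.41 and -0.05 in BM. brick3 (GRMZM5G886363), a component of the complex that starts actin branches, had 1.90, 1.28 and 0.63 (MB), against 1.54, 1.51 and 1.68 (B73) and 1.98, 0.88 and 0.68 (Mo17). Its MB peak lay 6571 bp upstream and did not overlap the inbred peaks, which lay at 4871 and 4854 bp. copz1 (GRMZM2G431350), a coat protein of transport vesicles, had 0.36, 1.18 and 0.41 in BM.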

How the data were processed

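Peak lists of ZmCCA1 ChIP-seq were used as deposited, 1 per genotype. Per the study's methods, the authors aligned read pairs to the B73 reference (AGPv2), to a reference-guided Mo17 assembly, or to both for the hybrids, kept unique pairs, removed duplicates and sampled all libraries down to the same depth. Peaks were called with MACS2 2.0.1 in each library against its input, kept where both replicates overlapped, merged over time points and assigned to genes within 10 kb. The deposited values are log2 ratios of ChIP to input, which the authors give once per peak and time point; how the replicates were combined is not given in the sources used here.

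Peaks were classed with Python 3.11.15 (pandas 2.3.3, SciPy 1.17.1) by gap and strand. The phase was the time point with the highest value, and the single tie among all 10136 peaks was left out. Shares were compared between hybrids and inbreds with Fisher's exact test, and classes with an exact sign-flip test over 4 genotypes, two-sided, with Benjamini-Hochberg adjustment. Loci joined peaks overlapping by at least 1 bp. Scripts were tested on simulated lists. Alternatives changed the gap, a minimum value of 1.5 or 2, a minimum lead of 0.5, the overlap, centring, the genotypes used and, chosen after seeing the data, the dense clusters. Genes were named by a rule (the strongest, the most multiple, the hybrid- or inbred-only, the boundary and the most different members, and the 18 genes examined by the study). The members and lists were chosen with earlier results of these data known. Gene names came from RefSeq (Zm-B73-REFERENCE-NAM-5.0), which matched 2828 of 4321 identifiers; sequences of the peaks were not used here.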

Additional observations from a re-analysis of the deposited data

Results flagged for a closer look

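At 4 of the 13 loci compared by name, the difference between ZT3 and ZT9 ran in opposite directions in hybrids and inbreds. It was above 0 in 1 pair of genotypes and below 0 in the other. The difference between the pairs was not tested. GRMZM2G109454 and GRMZM2G065992 had been named for their difference between hybrids and inbreds in the ZT3 excess, so their opposite signs follow in part from that choice. At the locus upstream of GRMZM2G109454 (chromosome 9), ZT3 minus ZT9 was 1.55 in BM and 0.48 in MB, against -0.09 in B73 and -0.46 in Mo17, so the hybrid mean was 1.28 above the inbred mean. At GRMZM2G156525 (chromosome 9) it was 0.44 in BM and 0.80 in MB, against -0.30 in B73 and -0.84 in Mo17, 1.19 apart. At GRMZM2G015024 (chromosome 2) it was 0.40 in BM and 0.64 in MB, against -0.11 in B73 and -0.32 in Mo17, 0.73 apart. The opposite held at GRMZM2G065992 (chromosome 9), with -0.25 in BM and -0.04 in MB, against 0.68 in B73 and 0.36 in Mo17, so the difference was -0.67. Among the 100 loci present in every list with a distal peak in at least 1, 20 had both hybrids above 0 and both inbreds below, and 1 the reverse, and over all 471 loci 72 (15.3%) and 4 did. The medians of all peaks had the same signs, since the median at ZT3 was 1.79 in BM and 1.52 in MB, against 1.48 in B73 and 1.34 in Mo17, and at ZT9 it was 1.44 in BM and 1.44 in MB, against 1.56 in B73 and 1.68 in Mo17. All these lists also differed in their overall levels at each time point, and the part of that difference in these loci was not tested.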

How the results depend on the processing

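Of 437 values computed under an alternative, 368 kept their direction and their side of the threshold or stayed close. Part of these 368 could not have changed. Leaving out a genotype that is not in a single pair returned the same difference. BM minus B73 at ZT3, for instance, stayed at 29.4 points without MB and without Mo17. The sign-flip comparisons of classes could not cross the threshold under any setting, so only their direction could change. The others follow. After centring on the list medians, the ZT3 share of distal peaks differed by -5.73 points between pooled hybrids and inbreds, by -9.02 for BM and -6.09 for MB against B73, and by -4.47 for BM and -1.53 for MB against Mo17. The ZT9 share differed by -1.97 pooled, 5.29 for BM and 0.18 for MB against Mo17, and the ZT15 share by 7.70 pooled, 12.8 for BM and 15.0 for MB against B73 and 1.35 for MB against Mo17. Loci with both hybrids above both inbreds were then 10%, the mean difference in ZT3 excess was -0.062, and distal peaks differed from peaks within 2 kb by -2.06 points at ZT9 and 1.56 at ZT15, and from peaks with no gene by -1.0 at ZT9. Single pairs lost a call in the main direction 12 times. By setting, these were ZT9 against B73 for BM and MB and ZT15 for BM against Mo17 (centring), ZT9 against B73 for both hybrids (without clusters), ZT9 for MB against both inbreds and ZT15 against Mo17 for both hybrids (lead of 0.5), and ZT9 for MB against B73 (minimum value 1.5, gap above 5000 bp, no other listed gene overlapped).

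A gap above 5000 bp left 137 (BM), 107 (MB), 157 (B73) and 131 (Mo17) distal peaks. A highest value of at least 2 left 130, 99, 132 and 133. The dense clusters, removed after seeing the data, left 147 in Mo17, 50 loci in all lists and 84% of them with both hybrids above both inbreds.

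The remaining reversals concern differences near 0, mostly between distal peaks and peaks within 2 kb. For the ZT3 share these became -0.92 points (minimum value 1.5), -3.06 (minimum 2) and -0.34 (without BM). For the ZT9 share they became -2.05 (without Mo17) and -0.14 (without clusters), and for ZT15 0.69 (without Mo17). Level differences at ZT3 became 0.0072 (gap above 3000 bp), 0.016 (means), 0.0033 (without B73), 0.00072 (without BM) and 0.00067 (without clusters). At ZT9 they became -0.077 (no other listed gene overlapped), -0.0013 (without BM), -0.015 (without Mo17) and -0.029 (without clusters), and at ZT15 -0.048 (no other gene) and -0.11 (without clusters). For the highest value they became -0.0035 (gap above 5000 bp), -0.0056 (means), -0.016 (no other gene), -0.0055 (without B73), -0.0044 (without Mo17) and -0.0070 (without clusters). Against peaks with no gene the ZT3 share became -0.96 points (without BM), -1.25 (without MB) and -1.49 (without clusters), and the ZT9 share -3.26 (minimum 2) and -1.40 (without Mo17). Against peaks overlapping the gene the ZT15 share became -0.27 (minimum 2). Apart from centring, which removes list-wide levels, the cause of these changes was not tested.

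No paired analysis was possible because the lists give 1 value per genotype and time point and no replicate values. Genotypes, not replicates, were therefore left out in turn. The depth behind a peak is unknown, only called peaks have values, and with 4 genotypes no class comparison can pass 0.05.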
